A study of Mus musculus with 4 samples.

Results

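*Calca* and *Calcrl* are 2 of the 470 genes counted in sections of the vagal ganglia of asthmatic mice, and both were chosen by name. *Calca* encodes the sensory neuropeptide CGRP, and *Calcrl* encodes the receptor protein to which CGRP binds. The question was which cells of the ganglia held the transcript of the peptide and which held that of the receptor.

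The transcripts were imaged in place with the Xenium platform, in which probes bind RNA within a tissue slice and each detected molecule is assigned to a segmented cell. The 3 sections were vagal ganglia of adult male C57BL/6 mice (C57BL/6J in the methods) given *Alternaria alternata* extract, a fungal allergen, in PBS through the nose (50 µL at 25 µg/mL on days 0, 3, 6 and 9), with tissue taken 16 hours later. Mice of the study were 5 to 8 weeks old at the start. Ganglia were fixed in 4% paraformaldehyde and cut at 5 µm. All sections came from treated mice, so no level below can be set against an untreated mouse, and the labels do not say whether the sections came from separate mice. A lung section of the same treatment was not analysed here.

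CGRP is made by a large group of pain- and irritant-sensing neurons, which release it from their endings in the tissue as well as towards the brainstem. It widens blood vessels and acts on immune cells. Its receptor is built from the *Calcrl* protein together with the small membrane protein encoded by *Ramp1*. With the other RAMP proteins, the *Calcrl* protein serves as a receptor for adrenomedullin, which acts on vessels. The vagal ganglia join a nodose part and a jugular part of neural crest origin, whose neurons express the transcription factor gene *Prdm12*. *Calca* also encodes calcitonin through another way of splicing. Which exons the probes bind is not given in the sources used here, so the CGRP and calcitonin forms could not be told apart.

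On GRCm38, *Calca* (ENSMUSG00000030669) lies on the minus strand of chromosome 7, 114631478 to 114636357. *Calcrl* (ENSMUSG00000059588) spans a longer stretch of the minus strand of chromosome 2, 84330626 to 84425411. *Ramp1* (ENSMUSG00000034353) lies on the plus strand of chromosome 1, 91179822 to 91225196. All are annotated as protein coding.

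The 3 sections held 3211, 2716 and 3858 cells with 70313, 73733 and 108121 transcripts. *Calca* was counted 2050 times, which placed it 33 of 470 genes by total, with 597, 628 and 825 transcripts in sections 1 to 3. It was found in 743 of 9785 cells, with at most 41 in a cell. *Calcrl* was counted 234 times (rank 137), with 67, 70 and 97 transcripts in the sections. It was found in 217 cells, with at most 4 in a cell. Per 1000 transcripts of the section, *Calca* was at 8.49, 8.52 and 7.63 and *Calcrl* at 0.953, 0.949 and 0.897, so neither gene set one section apart. Levels are not compared between the genes, because probes differ in how well they detect their targets.

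Cells were classed from other genes, so that *Calca*, *Calcrl* and *Ramp1* took no part. A cell with at least 10 transcripts took the class of the marker list that supplied at least 3 transcripts and more than 50% of its marker transcripts. This gave 164 neurons with *Prdm12*, 1428 neurons without it, 43 endothelial-like cells, 865 fat-like cells, 715 glia-like cells and 218 fibroblast-like cells. Smaller classes were 25 macrophage-like, 14 mural-like and 6 lymphatic-like cells. Another 980 cells had enough transcripts but no class, and 5327 cells, 54.4% of all, were below the minimum. A level in CPM is the count of a gene for each 1000000 counts of all 470 genes in that class, over all sections for the class markers and within each section elsewhere. In the neurons, *Snap25* was at 63640 and *Tubb3* at 45263 CPM, against 194 and 242 in fat-like cells. In the endothelial-like cells the vessel genes *Podxl* and *Vwf* were at 67052 and 41618, against 440 and 278 in neurons. The fat-like cells had *Car3* at 276101 and *Pck1* at 109192. These genes define the classes and are shown only to check them. The glia-like name is the weakest, because it rests mainly on *Prx*, *Pmp22* and *Kcna1*, and the glial gene *Gfap* was found 3 times in its 715 cells. Errors are SD over 3 sections.

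Most *Calca* was in neurons. Neurons held 78.4% of all *Calca* transcripts, while they made up 16.3% of the cells and held 68.5% of the transcripts of all genes. The neurons with *Prdm12* were 1.68% of the cells and held 34.2% of *Calca*. The neurons without *Prdm12* were 14.6% of the cells and held 44.1%. Here and below, "without" means only that no *Prdm12* transcript was counted in the cell. Of the 164 *Prdm12* neurons, 85 held only 1 *Prdm12* transcript, so the other class may include neurons whose *Prdm12* was missed. The share of such neurons was not tested. Cells without a class held 11.2% of *Calca*, cells below the minimum 7.07%, and all other classes 3.32% together.

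*Calca* was at 53109, 44051 and 51684 CPM in the *Prdm12* neurons of sections 1 to 3 (49615 ± 4871, n = 3). In the neurons without *Prdm12* it was at 6865, 5467 and 5141 (5825 ± 916). Every section of one class lay above every section of the other. Per 100 cells this was 422 ± 54.7 against 63.3 ± 6.25 transcripts. The log2 fold change was 3.16 (standard error 0.14, adjusted p = 5.55e-67, edgeR's quasi-likelihood test with the section as a block), about 8.96-fold, and *Calca* was higher in 3 of 3 sections. In this comparison 41 of 161 genes tested (25.5%) were called higher in the *Prdm12* neurons and 31 (19.3%) lower, and *Calca* ranked 8 of 161 by fold change. With transcripts per cell in place of the share of transcripts, the split of calls was 29 higher and 50 lower, and *Calca* was still higher, by 2.73. With limma on log2(CPM + 1) the change was 3.10 (adjusted p = 0.0095, limma), so the size of the p-value depends on the fit.

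**Figure D1:**
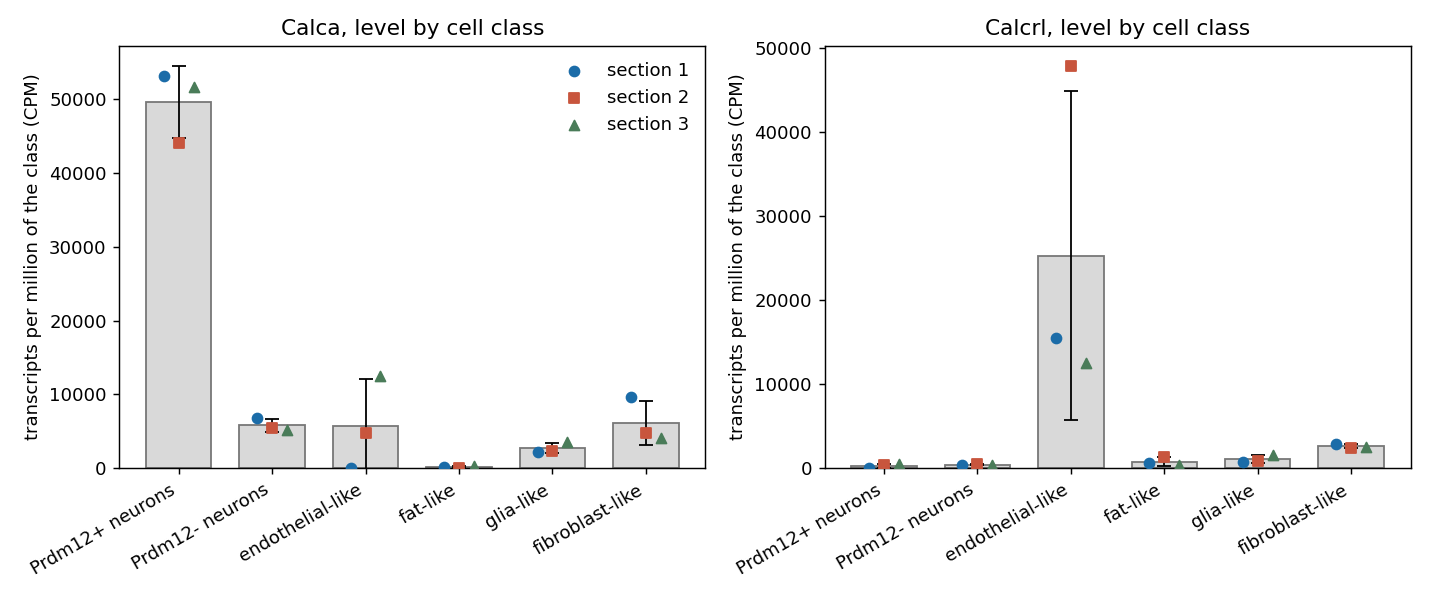
Levels of *Calca* (left) and *Calcrl* (right) in CPM of the class (vertical axes, linear) for 6 cell classes; bars are means over 3 sections, error lines SD, and symbols the single sections. *Calca* stands at 44051 to 53109 in *Prdm12* neurons of the 3 sections, and *Calcrl* at 12563 to 47847 in endothelial-like cells.

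Single neurons differed widely in *Calca*. Among the 164 *Prdm12* neurons, 123 (75.0%) held at least 1 *Calca* transcript, 56 (34.1%) at least 5 and 20 (12.2%) at least 10. The median was 2 and the highest count 41. Among the 1428 neurons without *Prdm12*, 308 (21.6%) held at least 1, 57 (3.99%) at least 5 and 15 (1.05%) at least 10, with a highest count of 17. Across all cells, 36 cells with at least 10 *Calca* transcripts held 25.7% of all *Calca*. The median depths of the classes were 70.5 and 76 transcripts a cell and the means 87.5 and 111. When each neuron of at least 50 transcripts was thinned to 50, 70.0% ± 3.25 of 113 *Prdm12* neurons and 12.9% ± 0.246 of 989 neurons without *Prdm12* held *Calca*, against 80.4% ± 6.24 and 19.4% ± 0.761 before thinning. The shallower 51 and 439 neurons were left out. The limit of 50 counted *Calca*, *Calcrl* and *Ramp1* too, and without these genes 108 and 983 neurons reached it. A few neurons thus entered through these genes, which can raise the shares with *Calca*. In fat-like cells 0.462% held *Calca*.

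**Figure D2:**
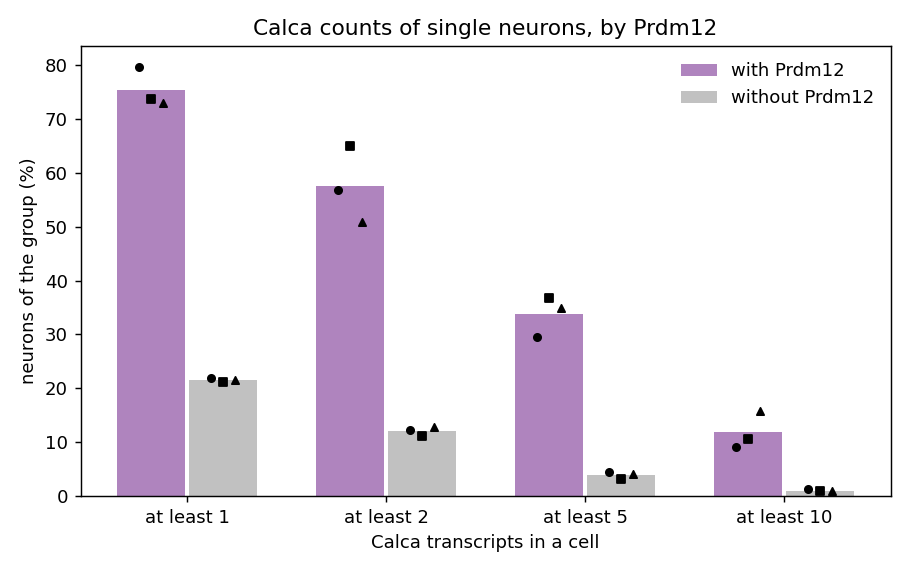
Share of neurons (vertical axis, percent) with at least 1, 2, 5 or 10 *Calca* transcripts (horizontal axis) in neurons with and without *Prdm12*; bars are means over 3 sections and symbols the single sections (circle 1, square 2, triangle 3). At 5 or more transcripts the *Prdm12* neurons of the sections lie between 29.5% and 36.8%.

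*Calca* did not rise with each step in *Prdm12* transcripts. Neurons with 1 *Prdm12* transcript (85 cells) had *Calca* at 52024 ± 7033 CPM, those with 2 (39 cells) at 68373 ± 23048, and those with 3 or more (40 cells) at 33825 ± 10795. Per 100 cells these were 323 ± 32.9, 554 ± 129 and 481 ± 244 transcripts. On both scales the neurons with 2 lay above those with 1 in 3 of 3 sections, while those with 3 or more lay below those with 1 in 3 of 3 sections as a share of transcripts and in 1 of 3 per cell. With a *Prdm12* minimum of 2, the fold change over the remaining neurons was 2.74 on the log2 scale. Outside the neuron class, 23 unclassed cells with *Prdm12* had *Calca* at 55899 ± 6728 CPM, and the 957 unclassed cells without it at 12553 ± 1442. None of the 14 cells below the minimum that held *Prdm12* had a *Calca* transcript. They held only 74 transcripts together, where a count of 0 allows up to 40540.5 CPM.

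Among *Prdm12* neurons, *Calca* was set beside 8 other peptide and sensor genes with at least 5 cells a section on each side. *Calca* was higher, with no overlap of the section values, in neurons with *Adcyap1* (the peptide PACAP; 86953 ± 16524 CPM with it and 30845 ± 6713 without), *Trpv1* (the capsaicin and heat channel; 72442 ± 20075 and 36640 ± 5179) and *Trpa1* (the irritant channel; 58330 ± 6695 and 44635 ± 5672). It was lower in neurons with *P2rx3*, an ATP-gated channel (32615 ± 6341 and 63677 ± 11324). For *Tac1*, which encodes the precursor of substance P, the values were 63098 ± 11929 and 34266 ± 17984, higher in 2 of 3 sections, and the ranges overlapped. The ranges also overlapped for *Asic2*, *Asic3* and *Mrgprd*. The genes with separate ranges are named after their values were seen, and the cells on both sides share a section. *P2rx3* and *Scn10a* were also among the genes that class a neuron.

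Among neurons without a counted *Prdm12* transcript, 15 genes could be set beside *Calca*. Neurons whose *Prdm12* was missed may be among these cells, and their part in the differences below was not tested. *Calca* was higher in all sections and without overlap in neurons with *Tac1* (17266 ± 6305 CPM with it and 4398 ± 1636 without), *Asic3*, *Adcyap1*, *Mrgprd* and *Mrgpra3*. It was lower without overlap in neurons with *Chrna3*, a nicotinic receptor subunit (3104 ± 339 and 12680 ± 3691), with *P2rx3* (3618 ± 939 and 11959 ± 763), and with *Scn10a*, *Vip*, *Asic2* and *Mrgpra1*. So *P2rx3* went with less *Calca* on both sides of the *Prdm12* split, and *Adcyap1* with more. *Trpv1* and *Trpa1*, which went with more *Calca* in *Prdm12* neurons, showed overlapping values here (6016 ± 764 with *Trpv1* and 5633 ± 1411 without). On neither side of the *Prdm12* split were the neurons with and without a gene matched for transcripts a cell. Neurons without *Prdm12* of at least 50 transcripts held 632 of the 905 *Calca* transcripts and 144204 of the 158306 transcripts of all genes. The part of depth in these differences was not tested.

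The same comparison of neurons with and without *Prdm12* gives the other members of the peptide and sensor lists. Of 6 other neuropeptide genes 3 were tested. *Tac1* was higher in the *Prdm12* neurons by 3.24 (standard error 0.18; 25845 ± 2294 against 2829 ± 307 CPM), close to the change of *Calca*. *Adcyap1* was higher by 0.47 (adjusted p = 0.030, edgeR; higher in 2 of 3 sections), and *Vip*, a peptide that relaxes smooth muscle, was lower (log2 fold change -1.06, standard error 0.34). The median of the 3 was 0.47, against -0.10 over all 161 genes.

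The secretory granule genes, whose proteins help to pack and release peptides, ran the other way. Of 5 tested 4 were lower, against 19.3% of all genes, and their median was -0.75 against -0.10, with *Scg2* at -1.04 (standard error 0.12) and *Scg5* at -0.49 (standard error 0.19). *Scg3* was at 0.19 (standard error 0.14) and did not pass. Of 12 sensory channel and receptor genes tested, 7 were higher, against 25.5% of all genes, and 3 lower, against 19.3%, with a median of 1.01. *Scn10a*, the sodium channel of pain-sensing neurons and one of the genes that class a neuron, was at 0.62. *Trpa1* was lower at -0.84 and *Chrna3* at -2.67, and *Trpv1*, with 0.07 (standard error 0.21), did not pass.

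Among the 5 genes with the largest changes besides those that class cells were *Trpm8*, the cold channel (5.23, standard error 0.47), *Mrgprd*, a receptor known from skin-innervating pain neurons (4.50, standard error 0.44), *Scin*, an actin-severing protein (3.32, standard error 0.76) and *Asic3*, an acid-sensing channel (3.32, standard error 0.23). These 4 were higher in 3 of 3 sections. *Calca*, at 3.16, was counted 702 times in the *Prdm12* neurons.

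Against all other classed cells, *Calca* was higher in neurons by 3.13 (standard error 0.23, adjusted p = 3.6e-30, edgeR), with 9409 ± 627 against 1707 ± 474 CPM. In this comparison 105 of 229 genes (45.9%) were called higher in neurons and 94 (41%) lower. The scale matters more here, because a neuron held several times the transcripts of another cell. On the library size alone 75 were higher and 112 lower, and per cell 146 were higher and 31 lower. The median over all genes moved from 0.13 to -0.59 and 1.82. Relative to the median, *Calca* was at 3.01, 2.99 and 3.01 under the 3 scalings.

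The other classes had less *Calca*, and several could not be ordered. Fibroblast-like cells (6159 ± 3010 CPM), endothelial-like cells (0, 4785 and 12563) and neurons without *Prdm12* had overlapping values. The endothelial-like value came from 6 transcripts in 2 of 43 cells, 5 of them in 1 cell. Glia-like cells, at 2267, 2371 and 3537 CPM (2725 ± 705), lay below the fibroblast-like cells and below the neurons without *Prdm12* in every section. No *Calca* was found in the 25 macrophage-like cells, where a count of 0 allows up to 6289 CPM, or in the 6 lymphatic-like cells, where it allows up to 32609.

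Fat-like cells had the least *Calca* of the larger classes, with 4 transcripts in 865 cells and 167, 0 and 337 CPM. Against the other non-neuronal cells without the endothelial-like ones, *Calca* was lower in fat-like cells at a log2 fold change of -3.27 (standard error 0.71, adjusted p = 0.000531, edgeR; lower in 3 of 3 sections). Of 95 genes tested 45 (47.4%) were lower and 35 (36.8%) higher. The neuron marker list made up 0.189% of transcripts in fat-like cells, 1.42% in glia-like cells, 1.2% in fibroblast-like cells and 1.97% in endothelial-like cells. Of the classes with more than 25 cells, the fat-like cells were thus lowest in both mean *Calca* and neuron transcripts. The part of neighbouring neurons in the *Calca* of the other classes was not tested.

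*Calcrl* was spread over more kinds of cell. Neurons held 29.9% of all *Calcrl* transcripts, cells below the minimum 22.2%, cells without a class 21.8%, endothelial-like cells 8.12%, fat-like cells 6.41%, glia-like cells 5.98% and fibroblast-like cells 4.27%. The endothelial-like cells were 0.439% of the cells and held 0.343% of the transcripts of all genes. The neurons' share of *Calcrl* was below their 68.5% of all transcripts.

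As a level, *Calcrl* stood far highest in the endothelial-like cells. It was at 15504, 47847 and 12563 CPM in sections 1 to 3 (25305 ± 19578), from 19 transcripts in 13 of 43 cells, and section 2 was the highest. In that section 2 cells held 8 of the 10 transcripts, and no endothelial-like cell of the other sections held more than 1. The lowest of these values was above every section of every class with more than 25 cells. Unclassed cells (3053 ± 502) and fibroblast-like cells (2608 ± 245) followed and overlapped. Glia-like cells (1079 ± 449) overlapped with fat-like cells (666, 1388 and 337; 797 ± 538). Neurons without *Prdm12* (408, 456 and 382; 415 ± 37.4) and with it (0, 347 and 535; 294 ± 271) had the lowest means of the classes with more than 25 cells, but overlapped with each other and with the fat-like cells. Lymphatic-like cells had 1 *Calcrl* transcript, macrophage-like cells 2 in 1 cell, and mural-like cells 0, where a count of 0 allows up to 13158 CPM.

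Per cell the picture of the neurons differs. Endothelial-like cells had 51.6 ± 41.9 *Calcrl* transcripts per 100 cells, neurons 4.36 ± 0.551, fibroblast-like cells 4.50 ± 0.631, fat-like cells 1.85 ± 1.21 and glia-like cells 1.76 ± 0.742. The share of cells with *Calcrl* was 31.6% ± 7.34 in endothelial-like cells and 1.85% ± 1.21 in fat-like cells. With each cell thinned to 10 transcripts it was 19.4% ± 7.15 and 0.799% ± 0.551, and in neurons without *Prdm12* 0.789% ± 0.243.

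*Calcrl* was higher in endothelial-like cells than in the other non-neuronal cells without fat-like ones, at a log2 fold change of 3.01 (standard error 0.83, adjusted p = 0.00115, edgeR; higher in 3 of 3 sections). Of 48 genes tested 12 (25%) were higher and 21 (43.8%) lower, and of 30 tested genes that took no part in classing 4 (13.3%) were higher. Those 4 were *Calcrl*, the water channel gene *Aqp1* (2.96, standard error 0.83), *Cav1*, which encodes the coat protein of caveolae (1.32, standard error 0.46), and the class I antigen gene *H2-K1* (0.87, standard error 0.24). *Cavin2*, another caveolar gene, was at 1.90 (adjusted p = 0.056, edgeR) and did not pass. The call for *Calcrl* rests on section 2: without it the log2 fold change was 2.35 (adjusted p = 0.172). It was also lost with limma (3.75, adjusted p = 0.0681) and with no filter on low counts (1.89, adjusted p = 0.202).

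Between fat-like and endothelial-like cells, *Calcrl* was at a log2 fold change of -2.96 (standard error 0.23, adjusted p = 9.18e-05, edgeR), lower in fat-like cells in 3 of 3 sections. The sides held only 15 and 19 *Calcrl* transcripts, and the standard error of 0.23 was near the lowest of the fits. It was 0.46 on the library size and 0.62 with DESeq2, and the alternatives reached from 0.22 to 0.73. Of 49 genes tested 11 (22.4%) were lower and 27 (55.1%) higher. The scaling set the size. TMM placed the median gene at 1.96, while on the library size it was at 0.03 and *Calcrl* at -4.92, and per cell 0.28 and -4.70. The split of calls was then 10 higher and 18 lower, or 14 and 18. Relative to the median gene, *Calcrl* was at -4.93, -4.95 and -4.98. In the comparison of endothelial-like cells with the other non-neuronal cells the median moved from -1.21 to -0.51 and -0.24, the split of calls to 14 higher and 13 lower and to 16 and 11, and *Calcrl* relative to it was at 4.21, 4.26 and 4.26. With no filter on low counts the fat-like difference was -1.86 (adjusted p = 0.094).

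Set against all other classed cells, neurons had less *Calcrl* as a share of transcripts, at a log2 fold change of -1.26 (standard error 0.34, adjusted p = 0.000357, edgeR; 406 ± 32.7 against 1671 ± 635 CPM). Per cell the direction turned, to 0.43 (adjusted p = 0.243). Relative to the median gene *Calcrl* was at -1.38, -1.39 and -1.39 under the 3 scalings. *Prdm12* made no detectable difference: *Calcrl* was at -0.21 (standard error 0.78, adjusted p = 0.828) with 5 and 65 transcripts on the sides, and 2 standard errors either way reach from -1.77 to 1.35.

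**Figure D3:**
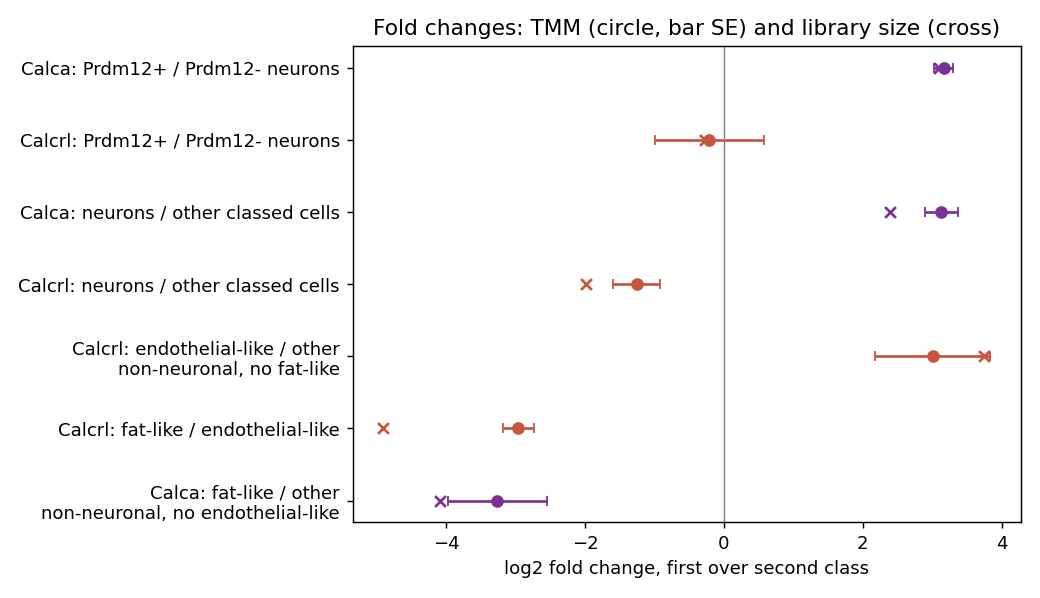
Log2 fold changes (horizontal axis) of *Calca* and *Calcrl* in each comparison where they were tested; circles are the edgeR fit with TMM factors, bars its standard error, and crosses the fit on library size alone. *Calca* lies at 3.16 between neurons with and without *Prdm12*, and *Calcrl* at -2.96 (circle) and -4.92 (cross) between fat-like and endothelial-like cells. The last bar of *Calcrl* (0.23) rests on 15 and 19 transcripts, and on library size alone its standard error was 0.46.

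*Calcrl* was also followed over all 8193 cells outside the neuron class, without the limit on cell size, by how many transcripts of the 9 vessel genes a cell held. With 0 vessel transcripts (7338 cells) *Calcrl* was at 1706, 1216 and 1707 CPM, and with 1 (595 cells) at 485, 2167 and 1213. With 2 (148 cells) it was at 9820, 2861 and 4808, and with 3 or more (112 cells) at 13356, 24963 and 6798. These 112 cells include the 43 endothelial-like cells, which held 19 of their 34 *Calcrl* transcripts. The last step is thus not separate from the class comparison above. The sections with 0 and 1 vessel transcripts overlapped, and all sections with 2 or more lay above them. Per 100 cells the means were 1.35, 2.11, 10.3 and 33.2. In neurons the values over the same steps were 329 ± 116, 513 ± 277, 903 ± 479 and 926 ± 420 CPM. *Calca* outside neurons showed no such order, at 5595 ± 226, 5371 ± 2213, 5643 ± 2652 and 6875 ± 6477 CPM.

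**Figure D4:**
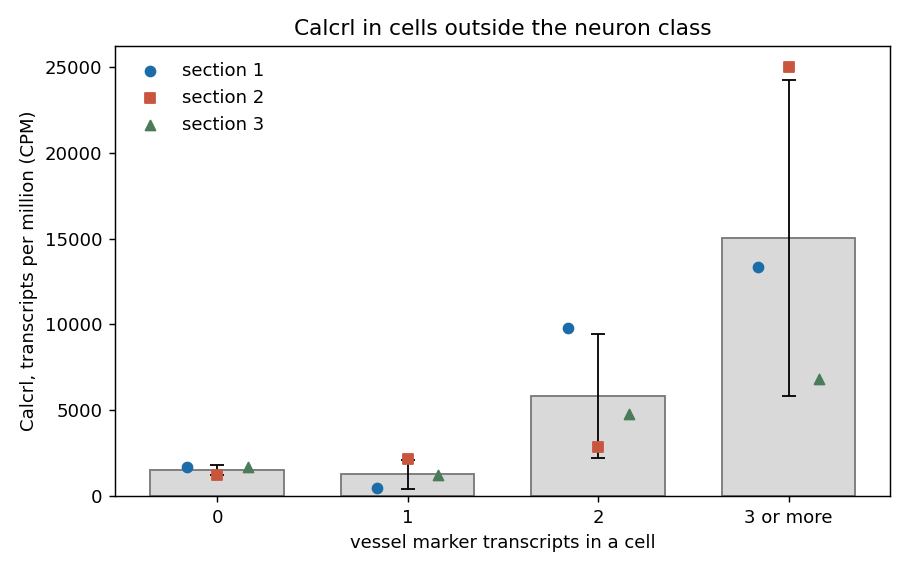
*Calcrl* in CPM (vertical axis) in cells outside the neuron class, by the number of vessel marker transcripts in the cell (horizontal axis); bars are means over 3 sections, error lines SD and symbols the single sections. The mean is 1543 with 0 vessel transcripts and 15039 with 3 or more. The cells with 3 or more include the 43 endothelial-like cells.

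Unclassed cells with at least 1 vessel transcript (217 cells) had *Calcrl* at 6525 ± 3277 CPM and those with none (763 cells) at 1878 ± 1194. Every section of the former lay above every section of the latter. Cells below the minimum overlapped, at 1816 ± 194 CPM with a vessel transcript (284 cells) and 2034 ± 539 without (5043 cells). So did glia-like cells (961 ± 1664 and 1087 ± 376) and fibroblast-like cells (3115 ± 5396 and 2261 ± 925). In these 3 groups the cells with a vessel transcript held only 3, 1 and 3 *Calcrl* transcripts. Fat-like cells with a vessel transcript (243 cells) had 1167 ± 828 and those without (622 cells) 618 ± 432, which overlapped. In fat-like cells the vessel list made up 1.54% of transcripts, with *Kdr* at 3967 and *Gpihbp1* at 3483 CPM but *Vwf* at 194 and *Plvap* at 48. The part of neighbouring vessel cells in the *Calcrl* of fat-like cells was not tested.

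The vessel genes that took no part in classing were also counted. In endothelial-like cells over other non-neuronal cells, 3 of 14 were tested, 2 were higher (25% of all genes) and 1 did not pass. In neurons over other classed cells, 9 were tested, 2 were higher and 4 lower, with *Cav1* at -3.98 (standard error 0.22). Of all genes 45.9% were higher and 41% lower there, so the share of lower genes was near that of all genes. In *Prdm12* neurons 2 of 5 tested were higher (25.5% of all genes), and *Aqp1* was among them at 2.82 (standard error 0.31), so some genes of this list are not limited to vessels. Fat-like cells had 3 of 5 higher than other non-neuronal cells, against 36.8% of all genes. Of the fatty acid genes 4 of 4 tested were higher in fat-like cells (median 4.09, against -0.69 over all genes), with *Cd36*, a fatty acid carrier, at 5.86 (standard error 0.33).

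The receptor partner gene *Ramp1* was counted 147 times in 141 cells and was scarce in all classes. It was at 503 ± 264 CPM in neurons, 1135 ± 404 in glia-like cells and 55.5 ± 96.2 in fat-like cells, and endothelial-like cells held 1 transcript. The 14 mural-like cells held 2. In *Prdm12* neurons it was at 919 ± 348 CPM, against 465 ± 249 in the others (log2 fold change 0.99, standard error 0.60, adjusted p = 0.167, edgeR). The difference was in the same direction in 3 of 3 sections but did not pass.

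Transcripts of the receptor and its partner were rarely seen in the same cell, and each was rare by itself. Of 9785 cells 217 held *Calcrl*, 141 held *Ramp1* and 4 held both, and none of the 4 was endothelial-like. Whether 4 differs from what the separate counts would give was not tested. Of 431 neurons with *Calca*, 16 also held *Calcrl*, and of all 1592 neurons 65 held it. *Calcrl* was at 374 ± 99.3 CPM in neurons with *Calca* and 417 ± 38.2 in neurons without it, which overlapped. *Ramp1* was at 762 ± 487 and 408 ± 186, which also overlapped. At 1 or 2 molecules a cell, a lack of both transcripts in one cell does not show that the cell lacks one of them.

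Over 18 class and section sums (6 classes in 3 sections), the genes whose log2 level was most like that of *Calca* among 215 others were *Cplx2* (Pearson r = 0.79), *Trpm3*, *Tac1*, *Dbpht2* and *Lpar3* (0.77 to 0.78). Those most like *Calcrl* were *Clec14a* and *Eng* (both 0.90), *Myh11*, *Sox17* and *Vwf* (0.83 to 0.88). *Cplx2*, *Clec14a*, *Eng*, *Sox17* and *Vwf* helped to class the cells, as did *Myh11* for the mural class, and the points share sections, so these values only describe.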

How the data were processed

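The authors imaged 3 vagal ganglia sections on a Xenium slide and deposited raw counts of transcripts per gene and cell (470 genes, 9785 cells, 252167 transcripts). Image decoding and cell segmentation were done with the vendor's software, and the submitters' processing notes name Seurat. A segmented outline may also take in molecules of the cell beside it. No column was left without a sample (0), and no doublet caller was run. All 470 gene names were found on the panel list. Only *Calca*, *Calcrl*, *Ramp1* and *Prdm12* were looked up in GENCODE on GRCm38, through the panel's Ensembl identifiers.

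Cells with at least 10 transcripts were classed by 8 marker lists without *Calca*, *Calcrl* and *Ramp1*. The members and the lists were chosen with earlier results of these data known. Counts were summed per section and class and tested in R 4.3.3 with edgeR 4.0.16 (glmQLFit and glmQLFTest, TMM factors, filterByExpr, section as a block, since both classes come from the same sections), with Benjamini-Hochberg adjustment over all genes tested and calls at 0.05. Cells are not replicates, and 3 sections limit the precision. With the section as a block, p-values set the class difference against counting error together with the spread of that difference between sections. This spread may be technical. The estimate of the spread is shared over genes, and with 3 sections very small p-values rest on that sharing. Library size, transcripts per cell, DESeq2 1.42.0, limma 3.58.1 on log2(CPM + 1), other filters and leaving out each section were alternatives. Besides the members, the text names class markers, up to 3 members of each list by count, the 5 largest changes and the 5 genes most alike, but some of these are not reported here. On simulated counts, 89.5% of genes changed by 2 on the log2 scale were recovered for the *Prdm12* comparison, 62.5% for endothelial-like cells and 50% for fat-like against endothelial-like cells (the last pair over 8 genes each). Of genes changed by 1, 55.2% of 29, 10% of 10 and 0% of 2 were recovered. Of unchanged genes, 2 of 93, 1 of 26 and 0 of 24 were called. Apart from the planted changes the simulated classes shared the same profile, unlike the real classes.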

Additional observations from a re-analysis of the deposited data

Results flagged for a closer look

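Cells with enough transcripts but no class entered none of the fitted comparisons, yet held both genes above what a count of 0 allows (182 CPM). In these 980 cells *Calca* was at 12384, 15454 and 13805 CPM (13881 ± 1537) and *Calcrl* at 3334, 2473 and 3351 CPM (3053 ± 502). The 595 of them with 0 transcripts of the neuron list had *Calca* at 6142 ± 2156 CPM. This was below the 25292 ± 8039 of the 199 with 1 such transcript in every section. The 109 with 2 were at 24428 ± 10430 CPM and the 77 with 3 or more at 14896 ± 11945. In section 1 the cells with 3 or more (5435 CPM) lay below those with 0 (7519). *Calca* thus did not rise with each step. Over the same steps *Calcrl* was at 2780 ± 1117, 4142 ± 1538, 2669 ± 3352 and 3165 ± 1888 CPM, which overlapped. A cell of this group held at most 10 *Calca* and 2 *Calcrl* transcripts.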

How the results depend on the processing

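*Calca* in the comparisons of *Prdm12* neurons (log2 2.73 to 3.44 over 13 alternatives), of neurons with other cells (2.40 to 4.83) and of fat-like cells (-6.50 to -2.83) kept its direction and its call where it was tested. With at least 50 transcripts a cell the other cells held 0 *Calca* in 2081 transcripts, and with 3 counts over the group as the floor neurons were higher by at least 2.43. *Calca* was not tested in fat-like cells at 20 or 50 transcripts a cell or 6 list transcripts. *Calcrl* in neurons against other cells turned to 0.43 per cell. *Calcrl* in endothelial-like cells lost its call with limma (3.75), without a filter (1.89) and without section 2, and in fat-like against endothelial-like cells without a filter (-1.86). With one section left out these were 2.35 to 3.55 and -3.61 to -3.14. *Calcrl* was not tested in endothelial-like against other non-neuronal cells at 20 transcripts a cell or 6 list transcripts, nor in neurons against other cells at 50, and no endothelial-like cells were left to fit at 50. *Calcrl* between neurons with and without *Prdm12* ranged from -0.92 to 0.13 with one section left out. *Ramp1* in neurons turned from 0.32 to -0.41 (library size), -0.40 (limma), -1.51 (50 transcripts) and -0.34 to 0.66 with one section left out, and gained a call per cell (1.99, adjusted p = 1.64e-06, edgeR). The neurons' share of *Calca* fell from 78.4% to 76.4% with cells of at least 20 transcripts and 69.7% with 6 list transcripts, and that of *Calcrl* to 25.6%. The endothelial-like share of *Calcrl* was 5.49% to 10.2% with one section left out. The cause was not tested.

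Genes called for *Prdm12* neurons numbered 72, and 32 with limma. For neurons they numbered 199, and 49 at 50 transcripts. For endothelial-like cells they numbered 33, against 7 with limma, 10 at 20 transcripts, 9 with 6 list transcripts and 19 without section 2 or without section 3. For fat-like against endothelial-like cells they numbered 38, against 17 with limma, 25 at 20 transcripts, 20 with 6 list transcripts and 15 without section 1, and for fat-like cells against the rest 80, against 3 at 50 transcripts. Without the replicate block *Calca* in *Prdm12* neurons was at 3.15, in neurons at 3.12 and in fat-like cells at -3.13, and *Calcrl* at -1.27, 3.01 and -2.95. This changed none of these calls.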
